A study of Mus musculus with 28 samples.

Results

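Flt3, its ligand Flt3l and 6 other receptor genes for growth factors of blood cells (Kit, Csf1r, Csf2ra, Csf2rb, Csf3r and Il3ra) were examined across the BM cells of Flt3-ITD mice. They were selected by gene symbol, and all 8 were among the 25251 genes in the table. RNA had been sequenced from endothelial cells (ECs; CD45-Ter119-CD31+), mesenchymal stromal cells (MSCs; CD45-Ter119-CD31-CD166-Sca1+) and BM mononuclear cells (MNCs), sorted from C57 BL6 mice aged 8 to 10 wk that were Flt3+/+ or carried the Flt3-ITD knock-in on both alleles (Flt3 ITD/ITD). Each genotype had 5 libraries of ECs, 5 of MSCs and 4 of MNCs, which makes 28 libraries, each from 1 mouse. The authors give 4 to 5 mice per genotype, so libraries of different populations may share a mouse. Tests over all 28 libraries had no term for the mouse. Each EC or MSC library was made from 100 cells and each MNC library from 200. The knock-in is in the germline, so every cell of a Flt3 ITD/ITD mouse carries it, whether or not it transcribes Flt3. ECs and MSCs came from bone lining cells. The labels give bone lining cells as the tissue of the MNCs too, but name their source as BM MNCs.

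Flt3, Kit and Csf1r encode class III receptor tyrosine kinases, which dimerize when their ligand binds and then phosphorylate themselves. Flt3 works in early progenitors and dendritic cells, Kit in stem cells, progenitors and mast cells, and Csf1r in monocytes and macrophages. An internal tandem duplication (ITD) in the juxtamembrane part of Flt3 lets the kinase signal without ligand. Csf3r, Csf2ra, Csf2rb and Il3ra belong to the cytokine receptors, which have no kinase of their own and signal through Jak kinases and Stat factors. Csf3r, the receptor for G-CSF, acts in neutrophils and their precursors. Csf2ra and Il3ra are the α chains that bind GM-CSF and IL-3, and Csf2rb is the β chain they share. The mouse has an additional β chain gene, Csf2rb2, whose product pairs with Il3ra for IL-3.

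The annotation of GRCm38, the same build as mm10 to which the reads had been aligned, places Flt3 on the minus strand at chr5:147330741-147400489 and Kit on the plus strand of the same chromosome at chr5:75574916-75656722. Csf2rb (chr15:78325752-78353847, plus strand) and Csf2rb2 (chr15:78282507-78305721, minus strand) are neighbors. Their coding sequences are near copies, which bears on what their read counts can show. Over 2631 aligned coding bases they were 95.2% identical, and the longest stretch without a difference ran for 242 bases from coding base 2083 of Csf2rb. The 2 lines below give 105 coding bases of each gene from base 2068, 5′ to 3′ on the coding strand, with the last 2 differences before that stretch in capitals.
Csf2rb: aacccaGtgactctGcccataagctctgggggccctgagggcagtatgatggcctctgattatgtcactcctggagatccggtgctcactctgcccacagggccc
Csf2rb2: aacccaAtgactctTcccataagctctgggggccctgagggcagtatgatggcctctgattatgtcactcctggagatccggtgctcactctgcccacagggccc

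The reads were 51 bases long, and the authors kept uniquely mapped reads alone, so that a read from a shared stretch was lost from both genes. Of the 4850 windows of 51 bases in the Csf2rb transcript, 18.0% were also in Csf2rb2. Windows were shared with an overlapping gene for 61.8% of Flt3l (Gm45713, on the same strand, which is not in the table) and for 17.7% of Csf1r (Hmgxb3, on the opposite strand). For Csf3r the share was 10.96%, with AC105061.2, Trub1 and Tmed5. No window of Flt3, Kit, Csf2ra or Il3ra was shared.

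RefSeq promoter windows of GRCm38.p6, which run from 250 bases before to 50 bases after each start, were matched for 6 of the 8 members, with no entry for Csf1r or Csf2rb. They were searched on both strands for GAGGAA, the purine-rich core that PU.1 binds in myeloid genes, and for TGTGGT, the core bound by Runx factors. The 100 bases before the start are shown for Flt3 (chr5:147400490-147400589, minus strand), Csf2ra (chr19:61228419-61228518, minus strand) and Csf3r (chr4:126024559-126024658, plus strand), because these genes were much higher in MNCs than in either stromal population. Capitals mark GAGGAA.
Flt3: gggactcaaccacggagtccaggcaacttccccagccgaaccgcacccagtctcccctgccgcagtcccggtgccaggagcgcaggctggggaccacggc
Csf2ra: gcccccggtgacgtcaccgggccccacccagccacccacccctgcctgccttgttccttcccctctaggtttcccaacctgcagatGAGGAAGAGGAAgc
Csf3r: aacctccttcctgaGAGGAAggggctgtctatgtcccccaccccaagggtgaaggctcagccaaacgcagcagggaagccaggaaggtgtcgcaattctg

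In Csf2ra, GAGGAA began 14 and 8 bases before the start, and the pair stood side by side without overlap. In Csf3r it began 86 bases before the start. Kit, whose window is not shown, held it 223 and 227 bases before its 2 annotated starts, which is 1 place, and the windows of Flt3, Flt3l and Il3ra held none. GAGGAA was in 28.3% of all 32851 such windows, so that a match is a description of these letters and not of a bound site. TGTGGT, which was in 16.8% of all windows, was in none of the members' windows.

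Expression is given as RPKM, the read count scaled to transcript length and library total, and as counts where these were low. Library totals ran from 6377013 to 33880743 counts. As the smallest amount a library can show, 3 counts served as a floor, which covers counting error only. The sorted populations carried their defining markers. The summed RPKM of 6 endothelial genes was 1467 to 2087 in ECs and at most 28.1 elsewhere. Of 7 mesenchymal genes, Pdgfra, Pdgfrb, Col1a1 and Col3a1 were higher in every MSC than in any EC library (mean RPKM of Pdgfra 82.5 in Flt3+/+ MSCs and 0.404 in Flt3+/+ ECs). The list as a whole did not separate stroma, at a summed RPKM of 3676 to 6323 in ECs and 2841 to 4778 in MSCs, since Ly6a, which encodes Sca1, was at 5229 in Flt3+/+ ECs and 2916 in Flt3+/+ MSCs, and Cxcl12 and Lepr were present in both. The summed RPKM of 8 pan-leukocyte genes was 3706 to 5728 in MNCs, 4.08 to 22.7 in Flt3+/+ ECs, 4.1 to 214 in Flt3 ITD/ITD ECs and 0.95 to 169 in MSCs. The library of Flt3 ITD/ITD ECs replicate 2 stood apart, with 778 counts of Ptprc, which encodes CD45, against at most 3 in each of the other EC libraries. Flt3 ITD/ITD MSCs replicate 5 stood apart likewise, with a pan-leukocyte sum of 169 against 0.95 to 10.3 in the other 4 of its group, 32 counts of Ptprc, 606 of Coro1a and 13898 of S100a8, a neutrophil gene. In MNCs, replicates 1 and 2 stood apart from replicates 3 and 4 in both genotypes. The summed RPKM of 7 immediate-early genes was 286 to 469 in the former and 15.5 to 29.8 in the latter, and 13.8% of 12036 genes separated the libraries in this way in both genotypes. This split was chosen after the values were seen, and the share for other splits was not counted. No label names a batch, and values within each set of MNC replicates are therefore given beside the pooled ones. For their gene set comparison of ECs and MSCs, the authors name 2 experiments with 5 mice of each genotype. No label assigns the EC and MSC libraries to these experiments, and the main fits had no term for them.

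Flt3, the gene that carries the knock-in, was transcribed mainly in MNCs. In Flt3+/+ MNCs its RPKM was 6.96, 6.74, 2.53 and 2.72, and in Flt3 ITD/ITD MNCs 6.91, 14.81, 10.95 and 10.72. Of the 4 Flt3 ITD/ITD libraries, 3 were above every Flt3+/+ library, and the lowest was level with the highest Flt3+/+ libraries. In Flt3+/+ ECs no library had more than 1 count, and in Flt3+/+ MSCs all 5 were at 0. In Flt3 ITD/ITD ECs, replicate 3 had 148 counts (RPKM 1.37) and replicate 5 had 63 (0.65), and the other 3 libraries had an RPKM of 0.02 at most. In Flt3 ITD/ITD MSCs, replicate 2 had 22 counts (0.22) and replicate 5 had 8 (0.20). The stromal libraries with more than 3 counts were thus 4 of 10 in Flt3 ITD/ITD mice and 0 of 10 in Flt3+/+ mice. These 4 include MSC replicate 5 with its leukocyte transcripts. Without this library they were 3 of 9. EC replicate 3 held 412 counts of Elane, an elastase of early granulocytes. Of the same list it held 0 counts of Mpo, 0 of Ctsg and 1 of Prtn3. EC replicate 5 and MSC replicate 2 had pan-leukocyte sums of 4.1 and 2.87 and early granulocyte sums of 0.01 each. Their monocyte and macrophage sums were 95.97 and 14.17, against 12.19 to 46.27 in Flt3+/+ ECs and 12.94 to 29.17 in Flt3+/+ MSCs. The part of blood cells in the Flt3 counts was not tested. The difference in mean RPKM between genotypes did not pass the exact two-sided permutation test in ECs (p = 0.286, 5 mice against 5) or in MSCs (p = 0.167). A gene count does not separate the duplicated from the normal allele, so these values do not check the genotype labels.

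Csf1r, the receptor for M-CSF and IL-34, was the member that separated blood from stroma by the widest margin. Its RPKM in MNCs ran from 19.06 through a median of 46.1 to 73.57, while all 10 EC libraries had 3 counts or fewer. In MSCs, 8 of 10 libraries were at 0, and the remaining counts were 6 in Flt3+/+ replicate 3 and 40 in Flt3+/+ replicate 5 (RPKM 0.31). The MSC library with 40 counts also held 1884 counts of Mpo, a granule enzyme of early granulocytes, and 378 counts of Coro1a, a leukocyte gene, and their part in its Csf1r counts was not tested.

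Kit was uneven in stroma. In ECs the RPKM in Flt3+/+ libraries was 0.11, 0, 0.03, 0.07 and 0.03, and in Flt3 ITD/ITD libraries 0.59, 0.01, 15.05, 0.02 and 0.87. Replicate 3 of the Flt3 ITD/ITD ECs, with 1983 counts, was above 7 of the 8 MNC libraries, and the same library had the most Flt3 counts among all stromal libraries. Beside Elane it held 0 counts of Mpo and of Coro1a and 3 counts of Ptprc. In contrast, Flt3 ITD/ITD ECs replicate 2, which held Ptprc, Coro1a and 170036 counts of S100a8, had 2 counts of Kit and none of Flt3 or Csf1r. In MSCs, Kit RPKM was 0, 0, 0, 5.3 and 1.88 in Flt3+/+ libraries and 0, 4.74, 0, 1.25 and 0.23 in Flt3 ITD/ITD libraries, so that the genotypes overlapped. In MNCs Kit ran from 2.44 through a median of 7.40 to 18.21.

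The 3 members that carry GM-CSF and IL-3 signals differed in where they were found. Csf2ra ran from 25.33 through a median of 36.3 to 47.5 in MNCs, and was at most 0.94 in ECs and 4.15 in MSCs. Csf2rb was high in MNCs (31.28 to 51.62, median 37.8) and in ECs (8.43 to 56.67, median 14.0), and low in MSCs (0.59 to 3.24, median 1.36). Il3ra was low throughout, and its median was 2.08 in MNCs, 0.625 in MSCs and 0.425 in ECs, with ranges that overlapped between every pair of populations. ECs thus held the β chain at 8.43 RPKM or more in each library, with at most 0.94 of Csf2ra and, in the highest library, 8.12 of Il3ra.

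Csf3r was the highest member in MNCs, at 33.61 through a median of 77.0 to 107.27, and was the member with the steadiest level in stroma. In Flt3+/+ ECs its RPKM was 5.22, 3.83, 4.06, 6.14 and 5.46 and in Flt3 ITD/ITD ECs 5.93, 4.91, 4.76, 5.6 and 4.72. In MSCs it was 2.02, 2.53, 2.69, 2.08 and 2.87 in Flt3+/+ libraries and 3.12, 2.11, 3.02, 1.57 and 3.31 in Flt3 ITD/ITD libraries. Each of the 20 stromal libraries thus held Csf3r, with 146 to 713 counts in ECs and 96 to 389 in MSCs. The coefficient of variation over the 10 ECs was 14.9%, where the median of 4571 genes within 2-fold of its level was 91.4% and 20 of them varied less. In MSCs it was 22.4%, against a median of 84.5% over 4421 genes. In MNCs it was 33.4%, above the median of 23.6% for genes of like level. Flt3 ITD/ITD ECs replicate 2, in which 6 neutrophil genes summed to an RPKM of 29489, had a Csf3r level of 4.91, within the range of the other ECs. An even stromal level was not particular to Csf3r. Itgam, another gene of blood cells, named after its values were seen, was 5.55 to 12.95 in ECs and 5.81 to 9.27 in MSCs. The coefficient of variation of Il5ra, another cytokine receptor, was 22.9% in ECs and 33.2% in MSCs. The part that the shared windows take in the even stromal level of Csf3r was not tested.

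Flt3l, the ligand of Flt3, was found in all 3 populations. Its RPKM was 0, 11.27, 0.07, 17.34 and 0.52 in Flt3+/+ ECs and 2.34, 10.8, 0.34, 0.52 and 18.96 in Flt3 ITD/ITD ECs. In MSCs it was 3.41, 8.24, 12.53, 0.94 and 2.84 in Flt3+/+ libraries and 19.94, 19.02, 1.84, 22.2 and 0 in Flt3 ITD/ITD libraries. In MNCs it was 1.12 to 11.31 with a median of 5.75. In counts, Flt3l ranged from 0 to 592 over the 20 stromal libraries. Single libraries thus ran from 0 to about the highest level of the gene in both stromal populations.

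**Figure D1:**
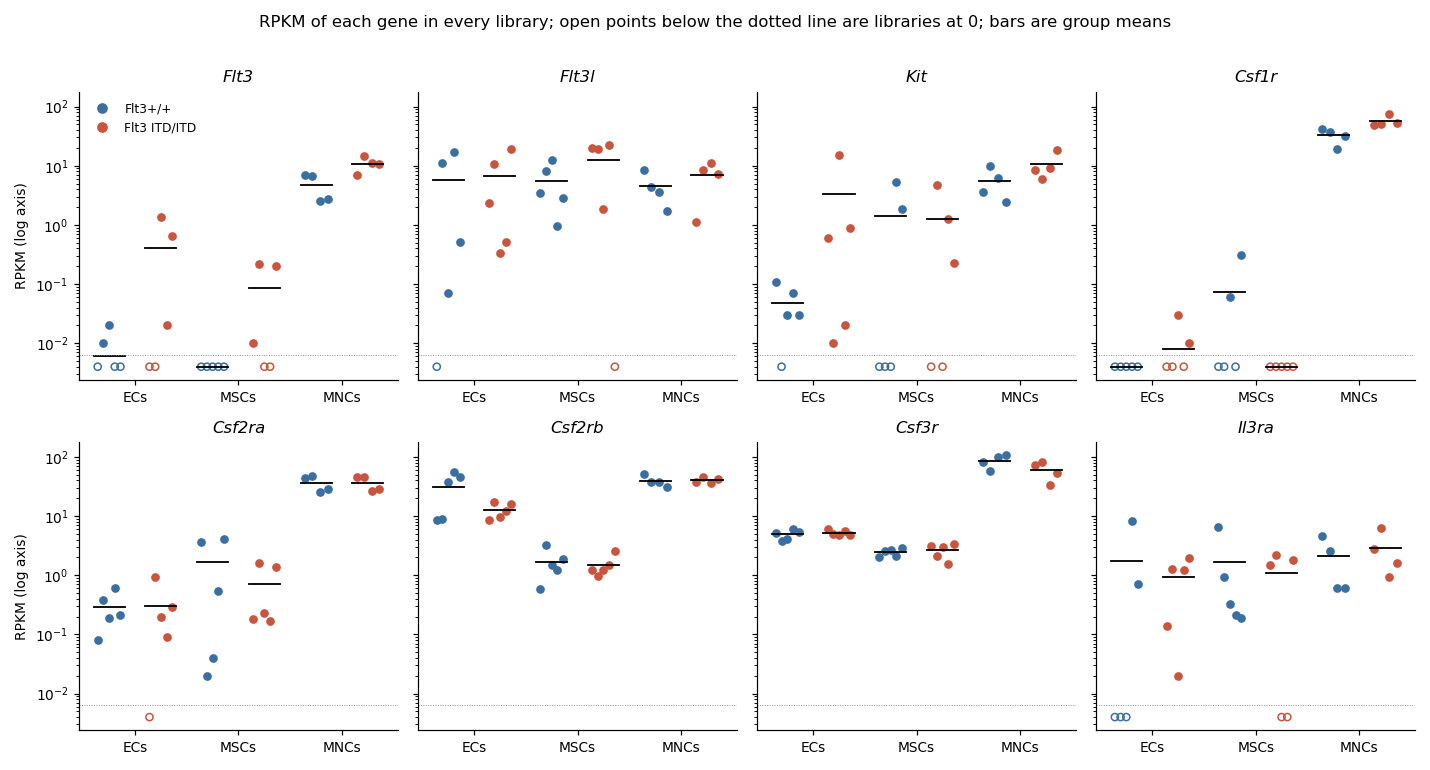
RPKM of the 8 genes in each of the 28 libraries on a logarithmic axis, by population and genotype, with bars at the group means and open points for libraries at 0. Csf1r and Flt3 are at or below the floor in most EC and MSC libraries. Csf2ra is low there, at most 0.94 in ECs and 4.15 in MSCs, but above the floor in 7 of 10 ECs and 8 of 10 MSCs. Csf2rb is high in MNCs and ECs, and Csf3r forms a tight band in each stromal population.

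**Figure D2:**
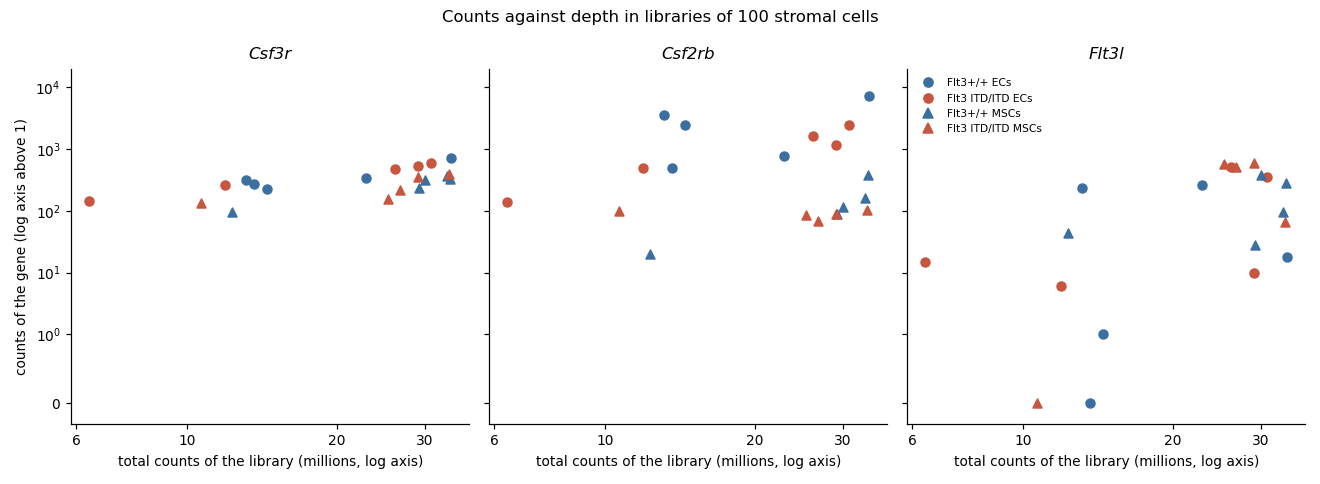
Counts of Csf3r, Csf2rb and Flt3l against the total counts of the library for the 20 EC (circles) and MSC (triangles) libraries, on logarithmic axes except between 0 and 1 count. Csf3r counts rise with depth from 96 to 713 in a narrow band, while Flt3l ranges from 0 to 592 counts at similar depths.

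Between populations, members were compared with edgeR's quasi-likelihood test over both genotypes, and a gene was called at a Benjamini-Hochberg adjusted p-value below 0.1 with mean RPKM differing by at least 2-fold. Against ECs, 5 of the 8 members were called higher in MNCs and none lower, where 21.9% of 16897 genes were called higher and 23% lower. The called members were Csf1r, Csf2ra, Csf3r, Flt3 and Kit. Against MSCs, 5 members were again called higher in MNCs and none lower (22% and 22.2% of all genes), and Csf2rb stood in the place of Kit. Since sorted populations were compared in bulk, fewer cells that express a gene and less RNA per cell cannot be told apart.

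Csf1r in MNCs was at least 860-fold higher than in ECs when ECs were set at the floor of 3 counts per library (log2 fold change 13.4 with the libraries as counted, adjusted p = 2.96e-08), and 1211-fold higher than in MSCs (11.9, adjusted p = 5.35e-08). Csf2ra was 122-fold higher than in ECs (log2 fold change 6.99, SE 0.903, adjusted p = 6.61e-07) and 30.4-fold higher than in MSCs (4.97, SE 0.824, adjusted p = 2.00e-05). Csf3r was 14.5-fold higher than in ECs (4.002, SE 0.204, adjusted p = 5.46e-14) and 29.1-fold higher than in MSCs (4.77, SE 0.210, adjusted p = 3.45e-15). For these 3 receptors of mature myeloid cells every MNC library was above every stromal library.

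Flt3 in MNCs was 37.6-fold higher than in ECs (7.08, SE 1.21, adjusted p = 6.30e-05) and 181-fold higher than in MSCs (9.21, SE 1.34, adjusted p = 7.77e-06), also without overlap of the libraries. These folds are ratios of mean RPKM, and the stromal means rest on the 4 Flt3 ITD/ITD libraries above the floor, so that they differ from the fitted log2 values, which average genotypes of which Flt3+/+ was at or near 0 and are no bounds. Without Flt3 ITD/ITD ECs replicate 3 the fitted value against ECs was 7.67. Kit in MNCs was 4.79-fold higher than in ECs (4.24, SE 1.44, adjusted p = 0.0182), but its ranges overlapped because of Flt3 ITD/ITD ECs replicate 3, and in Flt3 ITD/ITD mice alone it did not pass (1.65, adjusted p = 0.545). Against MSCs Kit did not pass in both genotypes together (2.39, adjusted p = 0.151). Csf2rb passed the adjusted p-value against ECs (1.23, SE 0.380, adjusted p = 0.0102) but its 1.81-fold difference was below the fold rule. Flt3l and Il3ra did not pass against ECs (adjusted p = 0.989 and 0.471). Without Flt3+/+ ECs replicate 4, which had the highest Csf2rb and Il3ra of all ECs, 7 of the 8 members were called higher in MNCs. Over all fits without 1 library, 7410 to 7645 genes were called in either direction.

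Between the stromal populations, 2 members were called, where 16.1% of genes were called higher and 16.5% lower in ECs. Csf2rb was 13.9-fold higher in ECs than in MSCs (log2 fold change 3.96, SE 0.406, adjusted p = 2.93e-08), with each of the 10 EC libraries above each of the 10 MSC libraries. Csf2ra was lower in ECs (-2.02, SE 0.726, adjusted p = 0.0340), with overlapping ranges. Csf3r was also higher in every EC library than in any MSC library (0.77, SE 0.178, adjusted p = 0.00151), and its ratio of mean RPKM was just under 2. Kit in ECs had a fitted log2 fold change of -1.85 (adjusted p = 0.292) although its mean RPKM was higher in ECs, at 1.68 against 1.34. The fitted value became -3.41 (adjusted p = 0.055) without Flt3 ITD/ITD ECs replicate 3, and 4 members were then called. Over all fits without 1 library, 5309 to 5643 genes were called between ECs and MSCs. Over all alternatives, among them each genotype alone, 1 to 4 members and 4267 to 6394 of all genes were called between ECs and MSCs. No member passed the edgeR test for a differing genotype effect.

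The question of the knock-in was addressed within each population by comparing Flt3 ITD/ITD with Flt3+/+ libraries. By the same rule no member was called in ECs, MSCs or MNCs, where 0.0081%, 0.0295% and 0.0144% of all genes tested were called. At an unadjusted p-value below 0.05, 1 member passed in ECs (Csf2rb, lower), none in MSCs and 2 in MNCs (Flt3 and Csf1r, higher), where 2.49% of all genes were lower in ECs, 4.24% passed in either direction in MSCs and 5.39% were higher in MNCs. Over the 8 members in MNCs, 5 had a positive log2 fold change and the median was 0.39, against -0.005 over all genes. DESeq2 called Flt3 in MNCs and no other member, where it called 265 genes in all in MNCs. The filter on low counts left 4 members for testing in ECs (Flt3l, Csf2rb, Csf3r and Il3ra), 6 in MSCs (these, Kit and Csf2ra) and all 8 in MNCs.

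In MNCs, Flt3 averaged 4.74 ± 2.44 (SD, n = 4) RPKM in the Flt3+/+ and 10.8 ± 3.23 (SD, n = 4) in the Flt3 ITD/ITD libraries, a 2.29-fold difference. The log2 fold change in edgeR was 1.06 (SE 0.334, unadjusted p = 0.0108, adjusted p = 0.415), and DESeq2 gave the same size with an adjusted p of 0.0834. The exact permutation test gave p = 0.0571, where 0.0286 is the smallest that 4 mice against 4 allow. Within replicates 1 and 2 the ratio was 1.59 with overlapping libraries, and within replicates 3 and 4 it was 4.13 without overlap. The Flt3+/+ libraries differed between these sets (6.96 and 6.74 against 2.53 and 2.72) more than the Flt3 ITD/ITD libraries did. All 5 erythroid genes tested in MNCs had a negative log2 fold change (median -2.87, 1 at an unadjusted p below 0.05). Their summed RPKM was 50.14, 20673.7, 81004.5 and 72990.2 in Flt3+/+ replicates 1 to 4 and 1215.59 to 11773.5 in Flt3 ITD/ITD libraries. The part of erythroid transcripts in the Flt3 and Csf1r levels was not tested. All 5 of the 5 dendritic cell markers had a positive log2 fold change (median 0.86, 1 at an unadjusted p below 0.05). Their summed RPKM was 125.74, 74.09, 43.48 and 31.18 in Flt3+/+ replicates 1 to 4 and 138.98, 149.18, 136.25 and 78.23 in Flt3 ITD/ITD replicates 1 to 4, and none was at or under the floor throughout a group. The part of these cells in the Flt3 level was not tested.

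Csf1r was the member whose genotypes did not overlap in MNCs. Its RPKM was 42.53, 37.78, 19.06 and 31.84 in Flt3+/+ libraries and 49.72, 51.61, 73.57 and 52.29 in Flt3 ITD/ITD libraries, so that each of the 4 latter was above each of the 4 former, as were 5.72% of all genes. The means were 32.8 ± 10.2 (SD, n = 4) and 56.8 ± 11.2 (SD, n = 4), a 1.73-fold difference with an exact permutation p of 0.0286, the smallest this design allows, which was not adjusted for the 24 such tests of the members. In edgeR its log2 fold change was 0.62 (SE 0.220, unadjusted p = 0.0200, adjusted p = 0.419). The ratio was 1.26 within replicates 1 and 2 and 2.47 within replicates 3 and 4, without overlap in either. Of 8 monocyte and macrophage markers, 7 had a positive log2 fold change and 5 of these had an unadjusted p below 0.05 (median 0.81, where the median over all genes was -0.005). Their summed RPKM was 555 to 1229 in Flt3+/+ MNCs and 1132 to 2717 in Flt3 ITD/ITD MNCs, none was at or under the floor throughout a group, and replicate 3 of the Flt3 ITD/ITD MNCs was highest both in this sum and in Csf1r. Whether Csf1r changed beyond these markers was not tested.

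In Flt3 ITD/ITD MNCs the mean of Csf3r was lower and that of Kit higher than in Flt3+/+ MNCs, and neither passed the test. Csf3r was 82.03, 57.79, 100.62 and 107.27 in Flt3+/+ libraries and 73.5, 80.53, 33.61 and 53.78 in Flt3 ITD/ITD libraries. The genotypes overlapped, with the 2 lowest libraries Flt3 ITD/ITD replicates 3 and 4 and the 2 highest Flt3+/+ replicates 3 and 4. The log2 fold change was -0.77 (SE 0.352, unadjusted p = 0.0559, adjusted p = 0.486), and the exact permutation p was 0.114. Within replicates 1 and 2 the ratio of Flt3 ITD/ITD to Flt3+/+ was 1.10, and within replicates 3 and 4 it was 0.42, so that its direction differed between the sets. All 6 neutrophil markers in the table had a negative log2 fold change (median -0.86, none at an unadjusted p below 0.05). Their summed RPKM was 38883 and 54336 in Flt3 ITD/ITD replicates 3 and 4, where Csf3r was lowest, 173927 and 154745 in Flt3 ITD/ITD replicates 1 and 2, and 164988 to 203117 in Flt3+/+ libraries, with none at or under the floor throughout a group. Their part in the Csf3r level was not tested.

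Kit was 3.53, 9.99, 6.18 and 2.44 in Flt3+/+ MNCs and 8.62, 6.07, 9.29 and 18.21 in Flt3 ITD/ITD MNCs, with overlap and a 1.91-fold higher mean in the latter (log2 fold change 0.75, SE 0.437, adjusted p = 0.563; exact permutation p = 0.2). Within replicates 1 and 2 the ratio was 1.09, and within replicates 3 and 4 it was 3.19. Mast cells use Kit, and the list that holds their genes also holds basophil genes, which its sums do not separate. These sums were 6.99 to 2613 in Flt3+/+ and 11.5 to 961 in Flt3 ITD/ITD MNCs. All 5 mast cell and basophil genes had a negative log2 fold change (median -1.53, 2 at an unadjusted p below 0.05). All 4 early granulocyte genes had a positive one (median 0.96, 2 at an unadjusted p below 0.05), with sums of 561 to 2203 and 1507 to 4327. None of these mast cell, basophil and early granulocyte genes was at or under the floor throughout a group. Of 6 stem and progenitor genes, 5 were tested, with 3 higher and 2 lower in Flt3 ITD/ITD MNCs. Their median log2 fold change was 0.077, with 1 higher at an unadjusted p below 0.05, and Mecom was at or under the floor throughout Flt3+/+ MNCs. The part of these lists in the Kit level was not tested, nor that of the stem and progenitor genes in the Flt3 level.

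The GM-CSF and IL-3 receptor chains showed no difference past the spread of the MNC libraries. Csf2ra was 43.5, 47.5, 25.33 and 28.45 in Flt3+/+ and 45.2, 45.48, 26.7 and 29.1 in Flt3 ITD/ITD libraries, so that same-numbered libraries were close and replicates 1 and 2 were above replicates 3 and 4 in both genotypes. Il3ra separated replicates in the same way, at 4.64, 2.57, 0.6 and 0.61 in Flt3+/+ and 2.76, 6.24, 0.92 and 1.59 in Flt3 ITD/ITD libraries. Csf2rb was 51.62, 37.75, 37.85 and 31.28 in Flt3+/+ and 37.26, 45.37, 36 and 42.42 in Flt3 ITD/ITD libraries. The log2 fold changes were -0.14 (SE 0.241) for Csf2ra, -0.18 (SE 0.175) for Csf2rb and 0.33 (SE 0.785) for Il3ra, with adjusted p-values of 0.880, 0.748 and 0.914. The scale moved the center of this comparison: the median over all genes was -0.005 after TMM normalization and 0.18 as a ratio of mean RPKM, and on the latter scale Csf2ra and Csf2rb were each 0.02 instead of negative. The ligand Flt3l was 8.44, 4.32, 3.65 and 1.69 in Flt3+/+ and 1.12, 8.33, 11.31 and 7.17 in Flt3 ITD/ITD MNCs, with overlap (log2 fold change 0.46, SE 0.646, adjusted p = 0.841; exact permutation p = 0.4). Within replicates 1 and 2 the ratio of mean Flt3l was 0.74, and within replicates 3 and 4 it was 3.46 without overlap, so that the direction differed between the sets. For Il3ra the ratios were 1.25 with overlap and 2.07 without.

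**Figure D3:**
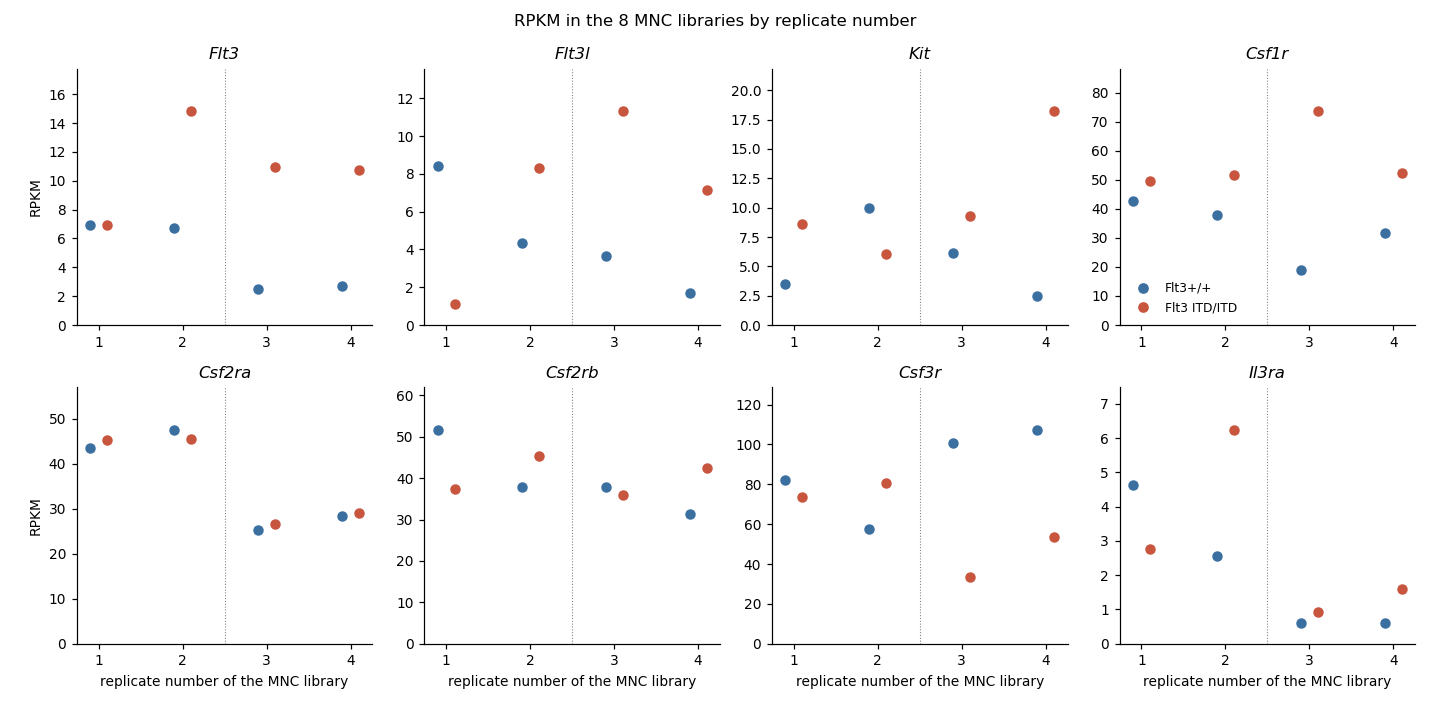
RPKM of the 8 genes in the 8 MNC libraries, against replicate number and by genotype, with a dotted line between replicates 2 and 3. Csf1r separates the genotypes, Flt3 does so except for Flt3 ITD/ITD replicate 1, and Csf2ra and Il3ra separate replicates 1 and 2 from 3 and 4 in both genotypes.

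In ECs the member with the largest fitted difference among the 4 tested was Csf2rb. Its RPKM was 8.43, 8.8, 37.37, 56.67 and 45.43 in Flt3+/+ and 8.54, 17.54, 9.5, 12.22 and 15.7 in Flt3 ITD/ITD libraries. Thus 3 Flt3+/+ libraries were above all Flt3 ITD/ITD libraries, while Flt3+/+ replicates 1 and 2 were at the low end of them. The mean was 2.47-fold higher in Flt3+/+ ECs (31.3 ± 21.8 against 12.7 ± 3.88, SD, n = 5 each), with a log2 fold change of -1.53 (SE 0.610, unadjusted p = 0.0294, adjusted p = 0.935) and an exact permutation p of 0.159. The log2 fold change of Csf3r was 0.09 (SE 0.399, adjusted p = 0.9998) in ECs and 0.15 (SE 0.438, adjusted p = 0.9994) in MSCs. Kit was removed by the filter in ECs. Without the filter its log2 fold change was 5.97 (SE 1.96, unadjusted p = 0.0107, adjusted p = 0.560), and the exact permutation p was 0.151. Of its counts in Flt3 ITD/ITD ECs, 1983 came from replicate 3, 100 from replicate 5 and 20 from replicate 1.

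In MSCs the highest Flt3l libraries were 3 Flt3 ITD/ITD ones at 19.02, 19.94 and 22.2, above all Flt3+/+ libraries, but the genotype also held the lowest library at 0. The means were 5.59 ± 4.72 and 12.6 ± 10.7 (SD, n = 5 each), the log2 fold change was 1.25 (SE 1.21, adjusted p = 0.999) and the exact permutation p was 0.222. Csf2ra was 3.68, 0.02, 0.04, 0.54 and 4.15 in Flt3+/+ and 0.18, 1.59, 0.23, 0.17 and 1.36 in Flt3 ITD/ITD MSCs (log2 fold change -1.20, SE 1.31). Csf2rb and Il3ra overlapped between genotypes in MSCs as well.

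Whether the effect of the knock-in differed between populations was tested with an interaction term. No member had an adjusted p-value below 0.1 in edgeR, where 0.0118% of genes passed for MNCs minus ECs, 0.00592% for MNCs minus MSCs and 0.379% for ECs minus MSCs. Among members with counts above the floor in both populations, Csf3r had the lowest unadjusted p-values. The log2 fold change for genotype in MNCs minus that in MSCs was -0.91 (SE 0.376, unadjusted p = 0.0228, adjusted p = 0.704), and minus that in ECs it was -0.85 (SE 0.376, unadjusted p = 0.0331, adjusted p = 0.555). For Kit the effect in ECs minus that in MSCs was 5.997 (SE 2.68, unadjusted p = 0.0344, adjusted p = 0.411), and it was 2.84 (adjusted p = 0.822) without Flt3 ITD/ITD ECs replicate 3. For Csf2rb the effect in MNCs exceeded that in ECs by 1.35 (adjusted p = 0.705).

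**Figure D4:**
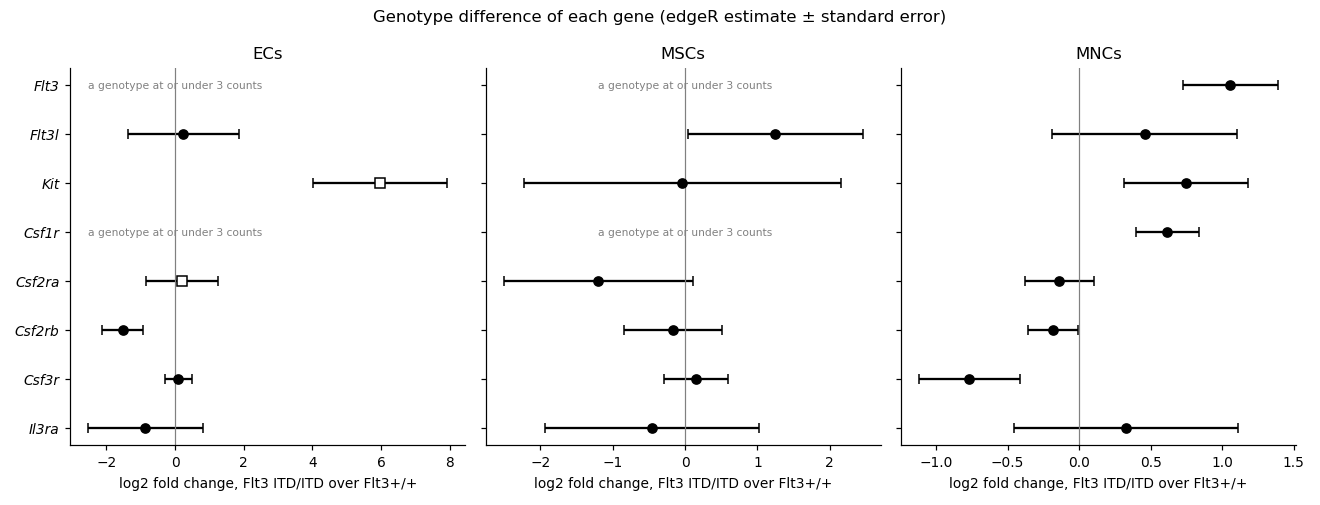
Log2 fold change of Flt3 ITD/ITD against Flt3+/+ libraries for each member tested in ECs, MSCs and MNCs. Bars are 1 SE, derived from the edgeR test, and each population has a separate horizontal scale. Open squares are fits without the filter on low counts, and no point is drawn where a genotype was at or under 3 counts throughout. In MNCs the SE is lowest for Csf2rb (0.175) and highest for Il3ra (0.785), and Flt3 (1.06) and Csf1r (0.62) are farthest from 0 there in units of their SE.

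The counts of Csf2rb have to be read beside those of its copy. Csf2rb2 averaged 9.11 ± 6.15 RPKM in ECs (SD, n = 10), 0.322 ± 0.288 in MSCs (SD, n = 10) and 7.76 ± 3.25 in MNCs (SD, n = 8). The ratio of Csf2rb to Csf2rb2 was 3.38 to 7.82 in MNCs and 0.939 to 7.81 in ECs. In MSCs, where Csf2rb2 was at most 0.93 RPKM, the ratio ran wider still, from 1.96 to 32.4. In ECs this ratio was 7.81, 0.939, 4.64, 2.70 and 5.72 in Flt3+/+ and 1.88, 1.21, 7.04, 1.29 and 1.15 in Flt3 ITD/ITD libraries, so that it was more uneven there than in MNCs. When both genes were summed, ECs had 40.8 ± 27.5 in Flt3+/+ and 21.4 ± 9.47 in Flt3 ITD/ITD libraries (SD, n = 5 each), with an exact permutation p of 0.175. ECs thus held β chain transcripts of both genes, by the reads that could be assigned.

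**Figure D5:**
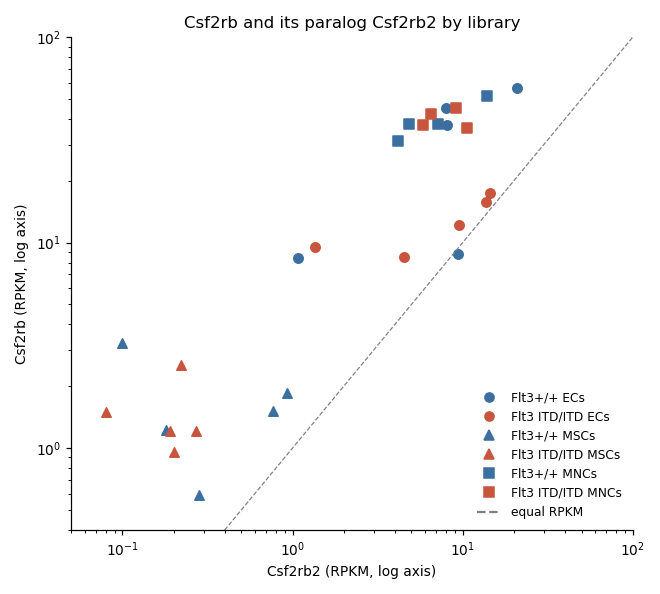
RPKM of Csf2rb against RPKM of Csf2rb2 in each library on logarithmic axes, by population and genotype, with a dashed line at equal RPKM. MSC libraries lie at low values of both genes, and ECs and MNCs at higher values. The range of ratios is wider in ECs (0.939 to 7.81) than in MNCs (3.38 to 7.82), and widest in MSCs (1.96 to 32.4).

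Kitl, the ligand of Kit, averaged 202 ± 51.4 RPKM in ECs (SD, n = 10), 16.8 ± 12.1 in MSCs (SD, n = 10) and 0.253 ± 0.399 in MNCs (SD, n = 8). It was higher in ECs than in MSCs (log2 fold change 3.30, SE 0.827, adjusted p = 0.00296) and lower in MNCs than in ECs (-9.43, adjusted p = 6.50e-07). Csf1, which encodes M-CSF, was highest in MSCs, at 38.4 ± 18.1 against 5.23 ± 4.76 in ECs and 1.004 ± 0.721 in MNCs (ECs against MSCs -2.94, SE 0.556, adjusted p = 0.000191). Il34, the other ligand of Csf1r, was listed at 0 in all 8 MNC libraries and exceeded the floor in 6 of 10 MSCs. Csf3, which encodes G-CSF, exceeded the floor in 3 of 10 ECs (highest RPKM 13.02) and was listed at 0 in every MSC and MNC library. Il3 had 2 counts or fewer in each of the 28 libraries, and Csf2, which encodes GM-CSF, had at most 1 count in any stromal library and 5 in any MNC library.

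Of 11 ligands, 3 could be tested for genotype in MNCs, 3 in ECs and 6 in MSCs, of which none had an unadjusted p below 0.05. Of 9 other blood cytokine receptors, all were tested in MNCs, and 2 were higher and 1 lower at an unadjusted p below 0.05. Il6ra, the α chain for IL-6, had a log2 fold change of 0.76 and Il6st, its signaling partner gp130, of 1.38 (adjusted p = 0.415 for each). Il7r, the receptor that lymphoid progenitors use, had one of -0.96 (adjusted p = 0.447). In ECs and MSCs 7 and 4 of these 9 were tested and none had an unadjusted p below 0.05. Il2rg, the γ chain shared by several interleukin receptors, averaged 225 ± 103 RPKM in ECs, 1.07 ± 3.37 in MSCs and 131 ± 31.1 in MNCs.

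Downstream of the receptors, none of 24 signal transducers was higher and 2 were lower at an unadjusted p below 0.05 in MNCs (Jak1, log2 fold change -0.42, and Pik3r1, -0.71), without passing adjustment. Over all 13926 genes tested there, 751 were higher and 696 lower at that level. Of 10 STAT5 targets and feedback genes, 9 were tested in MNCs and 1 passed. Socs2, a feedback inhibitor of cytokine receptors that STAT5 induces, rose in Flt3 ITD/ITD MNCs by 3.72 on the log2 scale (SE 0.440, adjusted p = 0.0779). This call was lost with the replicate block and with a term for replicates 1 and 2 against 3 and 4, each of which called 0 genes in MNCs, and it does not pass at an adjusted p below 0.05. Ccnd2, a cyclin of the G1 phase, had a log2 fold change of 0.87 (adjusted p = 0.419). In ECs Cblb, a ubiquitin ligase for receptor kinases, had a log2 fold change of 1.35 and Tyk2, a Jak kinase, one of -2.24 at an unadjusted p below 0.05. No gene of these lists had an unadjusted p below 0.05 in MSCs.

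The genes whose RPKM followed each member most closely over the 28 libraries were found by Pearson's r over the 13719 genes that averaged 1 RPKM or more, as a description, since libraries of a population share their cell type. Flt3 was followed by Clec2i (r = 0.98), Naip6 and Fam105a, Csf1r by Rnase6 (r = 0.999), BC147527 and Tifab, and Csf3r by Cd33 (r = 0.99), Stap1 and Ncf1. Csf2ra was followed by Trem2 (r = 0.98), Tnfaip8l2 and Slc2a6. The likeness was lower for Csf2rb, with Rab27a (r = 0.91), Lbr and Tm6sf1, and for Kit, with Tmem8 (r = 0.85), Blm and Phxr1. It was lowest for Il3ra, with Gga1 (r = 0.76), and Flt3l, with Pfkp (r = 0.65). Within the 8 MNC libraries alone, Flt3 was followed most closely by Clec2i again (r = 0.99), then Smek2 (r = 0.99) and Tm2d2 (r = 0.98). These were the highest among 12028 genes over few libraries. Tm2d2 averaged 111 RPKM in ECs and 150 in MSCs against 78.2 in MNCs, so this likeness is not one of cell type.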

How the data were processed

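RNA was sequenced from 100 cells (ECs, MSCs) or 200 cells (MNCs) of 1 mouse per library with the SMARTer Ultra Low RNA kit, and groups were taken from the labels. Single-end reads of 51 bases had been aligned to mm10 transcripts with Bowtie, and only uniquely mapped ones were kept. The authors then deposited, per gene and library, the estimated count from RSEM, given in whole numbers. The authors also deposited the RPKM of each gene. No version was given in the sources used here. Neither the kit nor the counting is stated to keep strand, so reads of overlapping antisense genes cannot be told apart.

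Counts were tested with the quasi-likelihood test of edgeR 4.0.16 (R 4.3.3), TMM normalization and its filter on low counts, without covariates, within each population for genotype and over all 28 libraries for populations and interactions. Adjusted p-values are Benjamini-Hochberg values over all genes tested. The SE given with an edgeR value was derived from its test. It is the size of the log2 fold change divided by the square root of the F statistic. Calls needed an adjusted p below 0.1 together with a log2 ratio of at least 1 in size between mean RPKM values, each with 0.01 added. Single genes were compared on mean RPKM with an exact two-sided permutation test (SciPy 1.17.1, Python 3.11.15). DESeq2 1.42.0, the exact test of edgeR, other scaling, no filter, a replicate block and leaving out each library were alternatives. The scripts were tested on simulated data.

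The named genes are the 8 members, the genes of the pathway lists with an unadjusted p below 0.05 or a described level, marker genes that a member's value touches, and the 3 genes most like each member. Itgam was named after its values were seen. Members and lists were chosen with earlier results of these data known. Same-numbered libraries were not treated as 1 mouse. Windows of 51 bases and coding sequences came from GENCODE transcripts of GRCm38, and promoters from RefSeq. Total counts per library ran from 6377013 to 33880743, and intervals and floors (3 counts) cover counting error only.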

Additional observations from a re-analysis of the deposited data

Results flagged for a closer look

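Over the 8 members, 43 groups of libraries had at least 1 library above 3 counts. Of these groups, 6 held a library far from the others by Dixon's test. The test marks about 5% of groups by chance where values are normally distributed. Several groups held libraries at 0, so that 6 of 43 cannot be set against that share. Kit was 15.05 RPKM in Flt3 ITD/ITD ECs replicate 3, where the others were 0.01 to 0.87, and 4.74 in Flt3 ITD/ITD MSCs replicate 2, where the others were 0 to 1.25. Il3ra was 8.12 in Flt3+/+ ECs replicate 4 (others 0 to 0.71) and 6.63 in Flt3+/+ MSCs replicate 1 (others 0.19 to 0.93). Csf1r was 0.31 in Flt3+/+ MSCs replicate 5 (others 0 to 0.06) and 73.57 in Flt3 ITD/ITD MNCs replicate 3 (others 49.72 to 52.29).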

How the results depend on the processing

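In ECs and MSCs, Flt3 and Csf1r were at or under 3 counts in most libraries, so that no fold change for genotype is given for them there. Of the members' values under the alternatives, 1686 kept their direction and side of the threshold, 83 turned in direction, 20 newly passed and 10 no longer did. The causes were not tested. Same-numbered libraries of both genotypes within a population had correlations of -0.073 to 0.062 in their deviations from the group mean. Those with different numbers had -0.087 to 0.098. The split of MNC replicates 1 and 2 from 3 and 4 did not show in these correlations. They therefore cannot decide whether equal numbers are pairs. Replicate numbers were not taken as pairs, and the replicate block was an alternative. Whether libraries of different populations share a mouse was not tested.

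Genes called for genotype numbered 1 in ECs, 4 in MSCs and 2 in MNCs. DESeq2 called 108, 61 and 265, the exact test of edgeR 16, 19 and 146, and an adjusted p below 0.05 left 0, 2 and 0. Without the filter on low counts ECs had 0 and MSCs 2. With the replicate block 0 were called in each population, and with a term for MNC replicates 1 and 2 against 3 and 4, added after seeing the data, 0 in MNCs. Leaving out 1 library gave 0 in ECs, 0 to 2 in MSCs and 0 to 1 in MNCs. DESeq2 called 1 member for genotype in MNCs (Flt3, adjusted p = 0.0834) and 1 for the interaction (Csf1r, ECs minus MSCs, adjusted p = 0.0513, with 3 counts or fewer in all ECs). Between ECs and MSCs, 2 members were called, 1 to 4 over the alternatives, and 2 to 4 without 1 library. All genes called there ranged from 4267 to 6394 over the alternatives.

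The following turned in direction, as log2 fold changes. With the replicate block, Il3ra in ECs was 1.92 and Csf2rb in MSCs 0.013, the block changed no call of a member for genotype, and it called 5, 5 and 2 members between populations as before. Flt3l in MNCs against ECs was 0.020 with RLE scaling and with DESeq2, 0.20 with the replicate block and 0.077 in Flt3 ITD/ITD mice alone. Kit in ECs against MSCs was 1.15 in Flt3 ITD/ITD mice alone, and the interaction of Csf2rb for MNCs minus MSCs was -0.022 with DESeq2. In the permutation tests, the difference of Csf2ra in ECs was -0.0156 and of Il3ra in ECs 0.030 on the log2(RPKM + 1) scale, and in MNCs that of Csf2ra was -5.87 and of Csf2rb -20.2 in CPM with TMM factors.

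Without 1 library, the log2 fold change for genotype in ECs ranged from -0.61 to 1.17 for Flt3l, from -1.32 to 2.31 for Il3ra and from -0.056 to 0.46 for Csf2ra. In MSCs it ranged from -1.61 to 1.61 for Kit, from -0.61 to 0.40 for Csf2rb and from -0.88 to 1.56 for Il3ra, and in MNCs from -0.38 to 1.02 for Il3ra. Flt3l in MNCs against ECs ranged from -0.25 to 0.37, and Il3ra in ECs against MSCs from -1.89 to 0.66. The interaction for MNCs minus ECs ranged from -0.74 to 0.70 for Csf2ra, from -0.72 to 1.04 for Flt3l and from -2.003 to 1.91 for Il3ra. For MNCs minus MSCs it ranged from -0.54 to 0.43 for Csf2rb, from -1.22 to 1.49 for Il3ra and from -0.85 to 2.36 for Kit, and for ECs minus MSCs from -0.18 to 0.018 for Csf3r and from -2.42 to 2.75 for Il3ra. The difference of mean RPKM in ECs ranged from -2.34 to 3.63 for Flt3l, from -0.149 to 0.089 for Csf2ra, from -0.036 to 0.542 for Csf3r and from -1.29 to 0.743 for Il3ra. In MSCs it ranged from -1.07 to 0.774 for Kit, from -0.471 to 0.192 for Csf2rb and from -0.923 to 0.688 for Il3ra, and in MNCs from -3.20 to 4.19 for Csf2ra, from -2.14 to 4.64 for Csf2rb and from -0.348 to 1.62 for Il3ra.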
